A study of Homo sapiens with 6 samples.

Results

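The 39 genes described here encode proteins of homologous recombination and of the Fanconi pathway, together with the kinases and nucleases that act with them. They were listed by symbol, with no threshold on measured values but with earlier results of these data known, and all 39 were among the 16376 genes of the deposited table. RNA of the human osteosarcoma line HOS was sequenced in 6 libraries from a stranded mRNA kit. Cells of 3 libraries had been treated for 24 h with Agrimol B, a plant phloroglucinol compound of Agrimonia, and the 3 control libraries came from cells listed with no treatment. Both groups carry the genotype label WT. The labels do not say whether the control cells received the solvent, and the dose used is not stated in them. Nothing in the labels says that the libraries came from separate cultures, so the p-values reflect only the library-to-library spread, which may be technical. HOS is 1 established line, so the values describe that line alone.

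Homologous recombination repairs a broken chromosome by copying an intact sister DNA molecule. Nucleases first trim the broken ends, a recombinase is then loaded onto the single strands by the BRCA proteins, and joined molecules are finally taken apart by a helicase complex or cut by nucleases. The Fanconi pathway handles DNA strands that are covalently linked to each other: a core complex attaches ubiquitin to the FANCD2-FANCI pair, and repair then draws on recombination. Most of these genes are used in dividing cells, where a sister DNA molecule is present.

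The levels are FPKM, fragment counts divided by transcript length and by the sequencing depth of each library. Total FPKM per library lay between 352990 and 359537, and low values placed the relative sequencing depths between 0.99 and 1.19 of the first control library. The number of reads is unknown, so no counting error can be given. Differences are Agrimol B minus control on the log2(FPKM + 1) scale, which understates the change of low genes, and a fold is the ratio of group means of FPKM. Group means carry their SD over 3 libraries. An adjusted p is that of limma with Benjamini-Hochberg adjustment over the 12143 genes whose mean reached 1 FPKM, and a gene is said to have risen or fallen where this value was under 0.05. Of 8 mesenchymal and osteoblast markers 7 had values, SP7 being absent, and 6 passed the filter on low values. The 7 summed to 1455 to 1545 FPKM in control and 1006 to 1061 FPKM in Agrimol B libraries. Most of this came from VIM, COL1A1 and SPARC, with control means of 704, 419 and 292 FPKM. The osteoblast markers ALPL and RUNX2 had control means of 16.4 and 5.15 FPKM, and BGLAP of only 0.146 FPKM. Among markers of other tissues PTPRC and PECAM1 were at or near 0, while of the epithelial markers CDH1 stood at no more than 0.439 FPKM and EPCAM at 12.8 to 14.7 FPKM over the 6 libraries.

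The 39 repair genes did not move as a block. With Agrimol B 10 of them fell, 5 rose, and the other 24 did not pass the test. BRIP1, a DNA helicase that binds BRCA1, fell 2.31-fold and was the only one of the 39 to change by at least 2-fold. The ubiquitin-conjugating enzyme gene UBE2T fell 1.57-fold, BARD1, which encodes the partner of BRCA1, fell 1.63-fold, and RMI2 of the BLM helicase complex fell 1.53-fold. RAD50, which encodes the long coiled-coil arm of the complex that holds broken ends, rose 1.61-fold, and RAD51B, a paralog of the recombinase, rose 1.64-fold.

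All 39 genes passed the filter on low values. The 5 that rose were 12.8% of the 39, against a background of 30.6% of all genes tested that rose. The 10 that fell were 25.6%, against 21.4% of all genes tested. On FPKM as deposited the share that rose was thus below the background, and the share that fell was close to it. The second reading depended on scaling. With median-ratio scaling 13 of the 39 fell, against 3167 of all genes tested. With quantile normalization 15 of the 39 fell, against 3083. In 5 of the 39 the 3 Agrimol B values all lay above the 3 control values, against 36.2% of genes tested. In 15 of the 39 they all lay below, against 26.0%. By this count the share above was under the background and the share below was over it. A change of at least 1.5-fold that also passed the test was seen for 2 members upwards (background 12.9%) and for 4 members downwards (background 9.09%). The median difference of the 39 was -0.10, with 28 differences below 0 and 11 above. That of all genes tested was 0.07, with 5250 differences below 0 and 6893 above. The median size of the difference, whatever its sign, was 0.21 for the members and 0.27 for all genes tested.

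The split of rises and falls moved with the scaling of the libraries. Rises made up 33.3% of the 15 calls on FPKM as deposited (5 higher, 10 lower), 18.8% with median-ratio scaling (3 higher, 13 lower) and 16.7% with quantile normalization (3 higher, 15 lower). Calls over all genes tested moved the same way, from 3713 higher and 2598 lower to 3062 and 3167 with median-ratio scaling and to 3101 and 3083 with quantile normalization. The 10 genes that fell were called lower under both scalings. The number of rises was also 3 without control replicate 2, without control replicate 3 or without Agrimol B replicate 2. In the same libraries 9 of 10 proliferation markers fell, with a median difference of -0.69, and their part in the values of the repair genes was not tested. In bulk RNA, fewer cells of a type and less RNA per cell cannot be told apart.

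**Figure D1:**
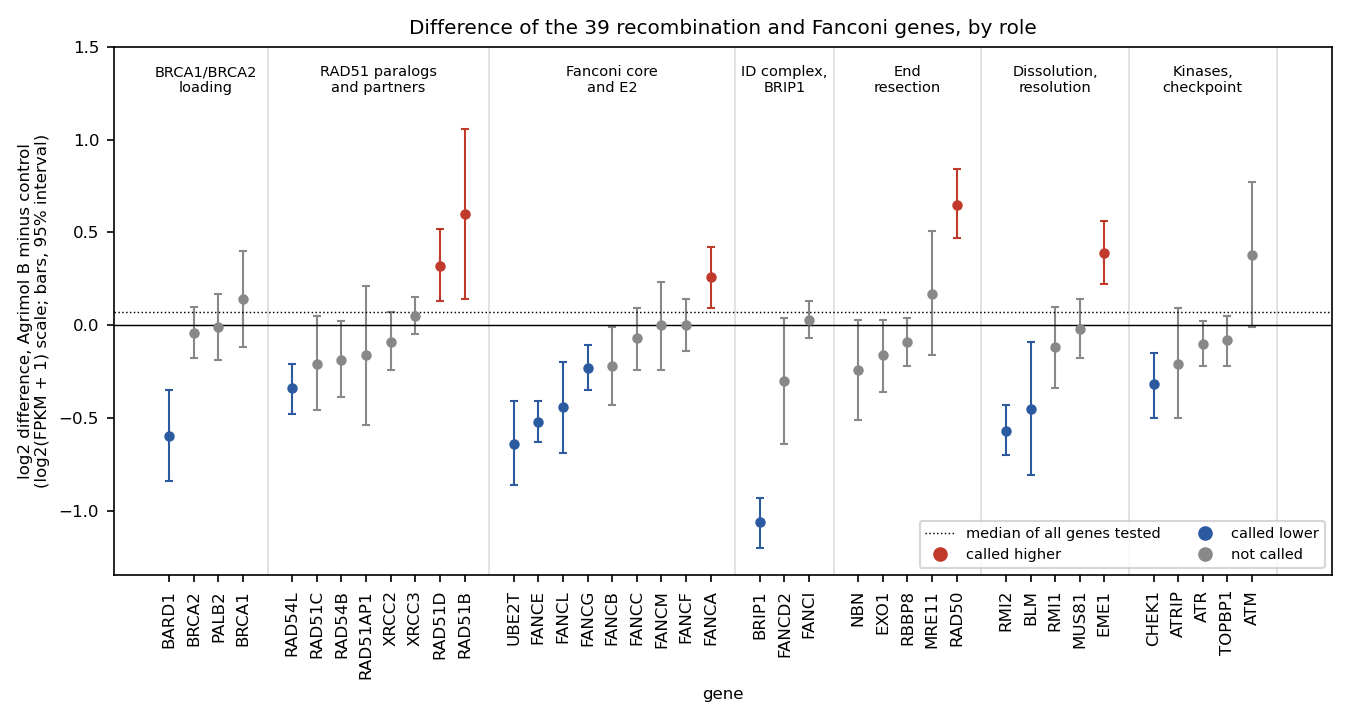
Difference between Agrimol B and control for each of the 39 genes, grouped by role. Points are log2 differences on the log2(FPKM + 1) scale and bars their 95% intervals (limma, 3 libraries per group), with blue for genes that fell, red for those that rose and grey for the rest; BRIP1 lies lowest at -1.06 and RAD50 highest at 0.65.

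The first role group loads the recombinase. BRCA1 and BARD1 form a ubiquitin ligase that favours recombination, PALB2 bridges BRCA1 and BRCA2, and BRCA2 places the recombinase on DNA. BARD1 (chromosome 2, 214725646 to 214809711, minus strand) stood at 8.12, 7.05 and 6.43 FPKM in the control libraries and at 3.94, 4.54 and 4.77 FPKM with Agrimol B. The groups did not overlap, and the lowest control value lay above the highest treated one. The group means were 7.20 ± 0.854 and 4.42 ± 0.428 FPKM, a difference of -0.60 (95% interval -0.84 to -0.35, adjusted p = 0.00355). The other 3 genes of the group did not pass the test.

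PALB2 had the smallest difference of the 4. Its levels were 10.5, 9.99 and 11.1 FPKM in control and 9.92, 11.5 and 10.0 FPKM in treated libraries, so the groups overlapped fully, with a difference of -0.01 (95% interval -0.19 to 0.17, adjusted p = 0.924). BRCA2 likewise overlapped, at 7.54, 7.85 and 7.97 FPKM against 7.98, 7.23 and 7.44 FPKM, with a difference of -0.04 (interval -0.18 to 0.10, adjusted p = 0.576). BRCA1 was measured at 16.5, 13.9 and 17.7 FPKM in control libraries and at 17.8, 19.4 and 16.0 FPKM with Agrimol B. Here too the groups overlapped, with a difference of 0.14 whose interval of -0.12 to 0.40 allowed a change in either direction.

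The second group holds the paralogs of the recombinase, which stabilise its filament, and the partners that drive strand exchange. Of these 8 genes 2 rose, 1 fell and 5 did not pass the test, and the median difference was -0.13. RAD51B (chromosome 14, 67819779 to 68730218, plus strand) stood at 4.94, 3.77 and 5.57 FPKM in control and at 6.62, 10.1 and 6.66 FPKM in treated libraries. The groups did not overlap, but Agrimol B replicate 2 stood well above the others. The means were 4.76 ± 0.912 and 7.80 ± 2.01 FPKM, a difference of 0.60 (95% interval 0.14 to 1.06, adjusted p = 0.0380). This call was lost under 7 of 13 alternatives, among them both scalings (adjusted p 0.0560 and 0.0640). Without Agrimol B replicate 2 the difference was 0.42 (adjusted p = 0.0683), and it was also not called without Agrimol B replicate 3 (0.0506), control replicate 1 (0.0764) or control replicate 2 (0.101). Over all 13 alternatives the adjusted p lay between 0.0373 and 0.101.

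RAD51D, a second paralog of the recombinase, was one of the lowest members. It stood at 2.76, 3.24 and 2.77 FPKM in control and at 4.26, 3.65 and 3.82 FPKM in Agrimol B libraries, with no overlap of the groups. Its means of 2.92 ± 0.270 and 3.91 ± 0.311 FPKM gave a 1.34-fold rise and a difference of 0.32 (95% interval 0.13 to 0.52, adjusted p = 0.0155). Without control replicate 3 the adjusted p was 0.0506, in a range of 0.0128 to 0.0506 over the alternatives that tested it. RAD51D (chromosome 17, 35092208 to 35121522, minus strand) shares 905 exon bases with the read-through gene RAD51L3-RFFL on its strand, so its value is uncertain.

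RAD54L encodes a DNA translocase that helps the filament invade the intact molecule. Its levels were 9.76, 10.1 and 9.07 FPKM in control and 7.39, 7.30 and 7.47 FPKM in treated libraries. The treated values lay close together and all below the control values. RAD54L (chromosome 1, 46247688 to 46278473, plus strand) fell 1.31-fold, from 9.65 ± 0.531 to 7.39 ± 0.0847 FPKM, a difference of -0.34 (95% interval -0.48 to -0.21, adjusted p = 0.00301). It shares 806 exon bases with LRRC41 on the opposite strand, and whether the counting used strand is not stated. Its relative RAD54B was also lower in every treated library (4.49, 3.53 and 3.75 against 3.29, 3.36 and 3.27 FPKM) but did not pass the test (difference -0.19, adjusted p = 0.105). RAD54B shares 3139 exon bases with FSBP on the same strand, which fell (-0.44, adjusted p = 0.00467), and the reads of the pair may not be separable.

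XRCC3, which pairs with RAD51C, showed the smallest difference of the 8. It stood at 34.7, 35.0 and 33.1 FPKM in control and at 35.8, 36.0 and 34.7 FPKM in treated libraries. The groups overlapped, with a difference of 0.05 and an interval of only -0.05 to 0.15 (adjusted p = 0.358). XRCC3 shares 5756 exon bases with KLC1 on the opposite strand. RAD51C (difference -0.21), XRCC2 (-0.09) and RAD51AP1 (-0.16), an accessory factor of strand pairing, did not pass the test either. RAD51AP1 stood apart within its group, at 17.6 FPKM in Agrimol B replicate 1 against 12.6 and 11.5 FPKM in the other treated libraries and 14.7 to 16.6 FPKM in control. Without that replicate its difference was -0.34 (adjusted p = 0.0194), without Agrimol B replicate 2 it was -0.11 (0.653), and without Agrimol B replicate 3 it was -0.05 (0.807). These adjusted p-values span the range over 13 alternatives.

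The third group is the Fanconi core complex, the machine that attaches ubiquitin, with UBE2T, the enzyme that hands the ubiquitin over. Of these 9 genes 4 fell, 1 rose and 4 did not pass the test, with a median difference of -0.22. UBE2T (chromosome 1, 202331657 to 202341980, minus strand) stood at 60.1, 64.8 and 53.3 FPKM in control and at 35.2, 36.7 and 41.4 FPKM with Agrimol B. The highest treated value was well below the lowest control value. From 59.4 ± 5.78 the level fell to 37.8 ± 3.24 FPKM, a difference of -0.64 (95% interval -0.86 to -0.41, adjusted p = 0.00200).

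FANCL, the ubiquitin ligase that works with UBE2T, fell with it. Its levels were 14.8, 12.3 and 14.0 FPKM in control and 9.52, 8.86 and 11.1 FPKM in treated libraries, without overlap. The means of 13.7 ± 1.28 and 9.84 ± 1.17 FPKM made a 1.39-fold fall and a difference of -0.44 (95% interval -0.69 to -0.20, adjusted p = 0.0121). FANCL lies on chromosome 2, 58159243 to 58241372, minus strand, and shares 452 exon bases with VRK2 on the opposite strand.

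FANCE is the subunit that bridges the core complex and its substrate. It stood at 11.2, 11.4 and 11.0 FPKM in control and at 7.27, 7.63 and 7.67 FPKM in Agrimol B libraries. Both groups were tight and far apart. FANCE (chromosome 6, 35452356 to 35467103, plus strand) fell 1.49-fold, from 11.2 ± 0.155 to 7.52 ± 0.219 FPKM, a difference of -0.52 (95% interval -0.63 to -0.41, adjusted p = 0.000314).

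FANCA and FANCG bind each other in the core complex, and their transcripts moved in opposite directions. FANCG (chromosome 9, 35073835 to 35080016, minus strand) stood at 22.0 FPKM in each control library (SD 0.00826) and at 18.3, 17.8 and 19.8 FPKM with Agrimol B. It fell 1.18-fold to a mean of 18.6 ± 1.02 FPKM, a difference of -0.23 (95% interval -0.35 to -0.11, adjusted p = 0.0109). FANCA (chromosome 16, 89737549 to 89816657, minus strand) stood at 23.9, 23.2 and 23.4 FPKM in control and at 29.6, 29.7 and 25.5 FPKM in treated libraries. All treated values of FANCA lay above all control values, with Agrimol B replicate 3 nearest to them. The rise from 23.5 ± 0.379 to 28.3 ± 2.37 FPKM was 1.20-fold, a difference of 0.26 (95% interval 0.09 to 0.42, adjusted p = 0.0205). This call was lost with median-ratio scaling (adjusted p = 0.0599), with quantile normalization (0.0600), and without control replicate 2 (0.0600), control replicate 3 (0.0568), Agrimol B replicate 1 (0.0606) or Agrimol B replicate 2 (0.0633), in a range of 0.00414 to 0.0633 over all alternatives. FANCA also shares 2302 exon bases with ZNF276 on the opposite strand.

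Among the core genes that did not pass the test, FANCF, an adaptor of the complex, had the smallest difference. Its levels were 7.52, 7.98 and 7.60 FPKM in control and 7.51, 7.41 and 8.20 FPKM in treated libraries, a difference of 0.00 (interval -0.14 to 0.14, adjusted p = 1.0). The complex's DNA translocase gene FANCM (difference -0.00, interval -0.24 to 0.23) and the subunit gene FANCC (-0.07, interval -0.24 to 0.09) were likewise not called. FANCB was lower in all treated libraries, at 3.23, 3.31 and 3.00 against 3.88, 3.39 and 4.38 FPKM, but its difference of -0.22 did not pass (adjusted p = 0.0792). Under both scalings FANCB did pass, with adjusted p of 0.0427 and 0.0379, in a range of 0.0321 to 0.191 over the alternatives that tested it.

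The fourth group is the substrate pair FANCD2 and FANCI, which clamps onto DNA once ubiquitin is attached, and the helicase BRIP1, also known as FANCJ. BRIP1 (chromosome 17, 61681266 to 61863521, minus strand) stood at 11.8, 11.2 and 12.0 FPKM in control libraries and at 5.31, 4.97 and 4.91 FPKM with Agrimol B. Each treated library was below the lowest control library by more than the whole spread within either group. The means of 11.7 ± 0.407 and 5.06 ± 0.213 FPKM gave a difference of -1.06 (95% interval -1.20 to -0.93, adjusted p = 5.04e-05), the largest among the 39 in either direction.

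FANCI was the highest of the 39 and had the smallest difference of the group. It stood at 73.1, 73.8 and 71.8 FPKM in control and at 77.5, 72.2 and 73.8 FPKM in treated libraries, a difference of 0.03 (interval -0.07 to 0.13, adjusted p = 0.555). FANCD2 stood at 19.9, 23.4 and 20.2 FPKM in control and at 20.6, 16.7 and 14.1 FPKM in treated libraries. Agrimol B replicate 1 of FANCD2 lay within the control range and the other treated libraries below it, so that the difference of -0.30 (interval -0.64 to 0.04) did not pass the test (adjusted p = 0.116). Without that replicate the difference was -0.43 (adjusted p = 0.0250), and without Agrimol B replicate 3 it was -0.18 (0.270). The adjusted p of FANCD2 ranged from 0.0250 to 0.276 over 13 alternatives.

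**Figure D2:**
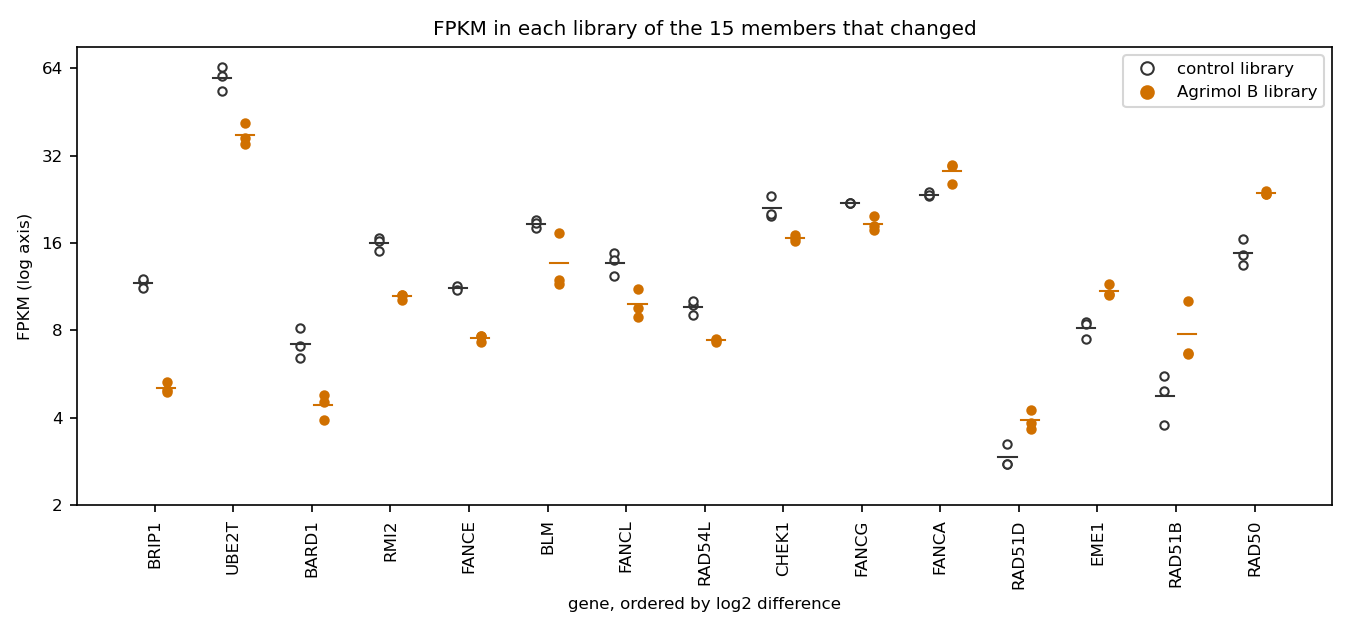
FPKM of the 15 genes that changed, in each library (log axis), ordered by log2 difference. Open circles are the 3 control libraries, filled circles the 3 Agrimol B libraries and lines the group means; the groups do not overlap in any of the 15, and the treated libraries of BLM and RAD51B are the most spread out.

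The stretches upstream of the start sites of BRIP1 and UBE2T are shown because these are the genes among those that fell whose windows hold both a CHR, an element known from genes expressed late in the cell cycle, and CCAAT boxes, the binding letters of the factor NF-Y. They are RefSeq sequences on GRCh38.p14, 5′ to 3′ on the gene's own strand, with CHR and CCAAT matches in capitals. That of BRIP1 covers chr17:61863529-61863778, minus strand, from 250 bases before the start to the base next to it, and that of UBE2T covers chr1:202341987-202342186, minus strand, from 250 to 51 bases before the start.
BRIP1: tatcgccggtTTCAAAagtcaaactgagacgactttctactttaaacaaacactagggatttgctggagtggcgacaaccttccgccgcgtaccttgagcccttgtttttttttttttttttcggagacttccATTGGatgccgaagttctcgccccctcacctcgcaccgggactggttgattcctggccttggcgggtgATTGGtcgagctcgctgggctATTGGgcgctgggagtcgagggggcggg
UBE2T: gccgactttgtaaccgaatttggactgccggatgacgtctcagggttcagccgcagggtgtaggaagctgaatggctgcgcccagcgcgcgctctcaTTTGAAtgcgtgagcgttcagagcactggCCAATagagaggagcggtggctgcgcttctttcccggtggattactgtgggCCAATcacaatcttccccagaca

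In the BRIP1 stretch the CHR letters began 240 bases before the start, and the CCAAT boxes, all read on the other strand, began 117, 49 and 28 bases before it. In UBE2T the CHR began 153 bases and the CCAAT boxes 124 and 73 bases before the start. A window of 300 bases per start site (250 before it and 50 from it) was available for 35 of the 39 genes and for 9645 of the genes tested, and a gene with several start sites was counted once. FANCI, NBN, RAD54B and RMI2 had no window. The letters TTTGAA or TTCGAA of the CHR, sought on both strands, were found in 4 of the 35 (11.4%) and in 15.3% of all genes with a window. They stood in 2 of 9 genes that fell, 0 of 5 that rose and 2 of 21 that did not pass the test. Among the last, ATM, with a difference of 0.38, also held both a CHR and CCAAT boxes.

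The box CCAAT, sought on both strands, was found in 17 of the 35 (48.6%), against 43.4% of all genes with a window. It was present in 5 of 9 genes that fell, 1 of 5 that rose and 11 of 21 of the rest. Letters bound by E2F factors (TTTCCCGC, TTTGGCGC, TTTCGCGC or TTTGCCGC, both strands) were found in 7 of the 35 (20.0%), against 6.76% of all genes with a window. Of these 7 genes 0 had fallen: FANCA rose, and EXO1, FANCC, FANCD2, RMI1, TOPBP1 and XRCC2 did not pass the test. The stress element TGATGNAA of ATF4 targets was found in RBBP8 alone, 1 of 35 (2.86%), against 2.70%. No match overlapped a match of another motif in the members' windows. These are letter matches in 1 window per start site and say nothing of binding.

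The fifth group trims broken ends. MRE11, RAD50 and NBN form the complex that holds the ends and starts the cut, RBBP8 encodes its cofactor CtIP, and EXO1 is the nuclease that lengthens the single strand. RAD50 (chromosome 5, 132556019 to 132646344, plus strand) stood at 16.5, 14.6 and 13.4 FPKM in control and at 23.6, 24.2 and 23.7 FPKM with Agrimol B. The treated libraries were nearly equal and all above the control libraries. From 14.8 ± 1.53 the level rose to 23.8 ± 0.306 FPKM, a difference of 0.65 (95% interval 0.47 to 0.84, adjusted p = 0.000834). On this scale it was the highest rise of the 39, while by fold, and with a pseudocount of 0.1, RAD51B stood slightly higher. A second annotated gene, AC116366.3, shares 7784 exon bases with RAD50 on its strand, and was listed at no more than 0.0638 FPKM in any library.

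The other members of the RAD50 complex did not rise with it. MRE11 stood at 11.0, 12.1 and 12.5 FPKM in control and at 16.6, 13.0 and 11.3 FPKM in treated libraries, spread on both sides of the control values (difference 0.17, interval -0.16 to 0.51, adjusted p = 0.324). NBN stood at 20.7, 16.9 and 21.8 FPKM in control and at 16.2, 18.2 and 15.3 FPKM in treated libraries, with a difference of -0.24 (interval -0.51 to 0.03, adjusted p = 0.118). The groups of NBN overlapped through control replicate 2, and without that library the adjusted p was 0.0266, in a range of 0.0266 to 0.287 over 13 alternatives. The differences between these subunits were not tested.

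RBBP8 had the smallest difference of the fifth group. Its levels were 27.6, 28.0 and 28.2 FPKM in control and 24.5, 26.6 and 27.5 FPKM in treated libraries, so the groups just failed to overlap (difference -0.09, interval -0.22 to 0.04, adjusted p = 0.192). EXO1 was also lower in each treated library, at 16.7, 17.7 and 14.3 against 18.0, 18.5 and 18.3 FPKM, and did not pass the test (difference -0.16, adjusted p = 0.139). With quantile normalization both passed, RBBP8 with an adjusted p of 0.0449 (range over alternatives 0.0449 to 0.423) and EXO1 with 0.0462 (range 0.0462 to 0.26).

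The sixth group takes joined DNA molecules apart. The BLM helicase with RMI1 and RMI2 and the topoisomerase TOP3A dissolves them without exchange, while MUS81 and EME1 form a nuclease that cuts them. RMI2 (chromosome 16, 11249619 to 11381662, plus strand) stood at 16.6, 16.3 and 15.0 FPKM in control and at 10.6, 10.2 and 10.6 FPKM with Agrimol B. The gap between the groups was wider than the range within either. RMI2 fell from 16.0 ± 0.840 to 10.5 ± 0.265 FPKM, a difference of -0.57 (95% interval -0.70 to -0.43, adjusted p = 0.000416).

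BLM (chromosome 15, 90717327 to 90816165, plus strand) stood at 19.2, 18.0 and 18.8 FPKM in control and at 17.3, 11.6 and 11.9 FPKM in treated libraries. All treated values were lower, but Agrimol B replicate 1 lay near the control libraries. The mean fell 1.37-fold from 18.6 ± 0.615 to 13.6 ± 3.23 FPKM, a difference of -0.45 (95% interval -0.81 to -0.09, adjusted p = 0.0448). The call was lost with no filter on low values (adjusted p = 0.0543) and without Agrimol B replicate 2 (0.120), Agrimol B replicate 3 (0.125), control replicate 1 (0.109), control replicate 2 (0.0843) or control replicate 3 (0.103). Without Agrimol B replicate 1 the adjusted p was 0.00112, the lowest over all alternatives.

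EME1 (chromosome 17, 50373220 to 50381483, plus strand) rose while its partner MUS81 did not pass the test. EME1 stood at 7.45, 8.57 and 8.38 FPKM in control and at 10.7, 11.6 and 10.6 FPKM in treated libraries, without overlap. Its means of 8.13 ± 0.595 and 10.9 ± 0.546 FPKM made a 1.35-fold rise and a difference of 0.39 (95% interval 0.22 to 0.56, adjusted p = 0.00443). EME1 shares 541 exon bases with LRRC59 on the opposite strand. MUS81 had the smallest difference of the sixth group, at 32.6, 34.1 and 37.9 FPKM in control and 35.7, 33.4 and 33.9 FPKM in treated libraries (-0.02, interval -0.18 to 0.14, adjusted p = 0.812). RMI1 was not called either (difference -0.12, adjusted p = 0.301).

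The seventh group signals damage. ATM and ATR are the kinases that sense breaks and single-stranded DNA, ATRIP and TOPBP1 recruit and activate ATR, and CHEK1 is the kinase that ATR switches on to hold the cell cycle. CHEK1 (chromosome 11, 125625136 to 125676255, plus strand) stood at 19.8, 23.3 and 20.1 FPKM in control and at 16.7, 17.0 and 16.2 FPKM with Agrimol B. The groups were separate, and the treated libraries were the tighter group. It fell 1.27-fold from 21.1 ± 1.97 to 16.6 ± 0.425 FPKM, a difference of -0.32 (95% interval -0.50 to -0.15, adjusted p = 0.0109). CHEK1 shares 80 exon bases with STT3A on its strand, whose difference of 0.41 was not called (adjusted p = 0.062).

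ATM had the largest difference of this group and did not pass the test. It stood at 13.1, 11.1 and 8.97 FPKM in control and at 17.3, 12.7 and 14.0 FPKM in treated libraries. Agrimol B replicate 2 of ATM lay below control replicate 1, so the groups overlapped (difference 0.38, interval -0.01 to 0.77, adjusted p = 0.0895). Without control replicate 1 the difference was 0.50 (adjusted p = 0.0470), without control replicate 3 it was 0.25 (0.215), and without Agrimol B replicate 1 it was 0.27 (0.225). Over 13 alternatives the adjusted p of ATM ranged from 0.0364 to 0.225. TOPBP1 had the smallest difference, at 26.6, 23.9 and 25.5 FPKM in control and 23.7, 23.1 and 24.7 FPKM in treated libraries (-0.08, interval -0.22 to 0.05, adjusted p = 0.251). ATR (difference -0.10) and ATRIP (-0.21) were not called, and ATRIP shares 1515 exon bases with TREX1 on its strand. ATR was lower in each treated library and passed under both scalings (adjusted p 0.0365 and 0.0255, in a range of 0.0255 to 0.312 over 13 alternatives).

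For the 24 genes that did not pass, the intervals give what the 3 libraries per group could resolve. In 12 of them the difference lay within 0.1 of 0, and in 12 the whole 95% interval lay within 0.3 of 0. Among these are BRCA2, PALB2, XRCC3, FANCF, FANCI and MUS81. The widest bounds over the 24 were -0.64 (FANCD2) and 0.77 (ATM). A fall of FANCD2 or a rise of ATM up to that size was thus not excluded. The 5 uncalled genes whose treated values all lay below the control values were RAD54B, FANCB, RBBP8, EXO1 and ATR.

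Several members act as partners in a fixed complex, and the ratio of their FPKM within a library compares their transcripts without any scaling between libraries. In 7 of 14 partner pairs, chosen after the values were seen, the ratio was higher in all treated than in all control libraries, in 2 it was lower, and in 5 the groups overlapped. Whether a pair counts as higher or lower depends on which gene was written first. Among single genes tested, the groups were apart in 36.2% upwards and in 26.0% downwards, which is no direct background for ratios of 2 genes. No test was run on the ratios. BRCA1 stood at 2.04, 1.97 and 2.75 times BARD1 in control and at 4.53, 4.27 and 3.36 times with Agrimol B. Over the same libraries the BARD1 mean was 1.63-fold lower and the BRCA1 mean 1.11-fold higher, of which the first passed the test. MUS81 stood at 4.38, 3.99 and 4.53 times EME1 in control and at 3.35, 2.88 and 3.20 times in treated libraries.

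In the helicase complex, of which 2 pairs were computed, TOP3A was close to BLM in control libraries, at 1.09, 1.05 and 1.10 times its level, and stood at 2.64, 4.39 and 3.42 times its level with Agrimol B. RMI1 went from 0.765, 0.803 and 0.829 of RMI2 to 1.18, 1.23 and 0.950. In the Fanconi core, FANCA stood at 1.09, 1.05 and 1.06 times FANCG in control and at 1.62, 1.67 and 1.29 times in treated libraries. FANCC stood at 0.773, 0.649 and 0.767 of FANCE in control and at 1.07, 1.00 and 1.01 in treated libraries. The ratio of FANCI to FANCD2 went from 3.67, 3.15 and 3.55 to 3.76, 4.32 and 5.22, with Agrimol B replicate 1 only just above the highest control library.

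Some partners kept overlapping ratios. FANCL and UBE2T, which both fell, stood in a ratio of 0.247, 0.190 and 0.262 in control and of 0.271, 0.241 and 0.269 in treated libraries. BRCA2 to PALB2 was 0.720, 0.785 and 0.718 against 0.805, 0.630 and 0.743. The ratio of RAD50 to MRE11 overlapped as well, at 1.5, 1.20 and 1.08 against 1.42, 1.86 and 2.10. The overlap lay between control replicate 1 and Agrimol B replicate 1. Control replicate 1 was the highest control in RAD50 and the lowest in MRE11, and Agrimol B replicate 1 was the highest treated library in MRE11.

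**Figure D3:**
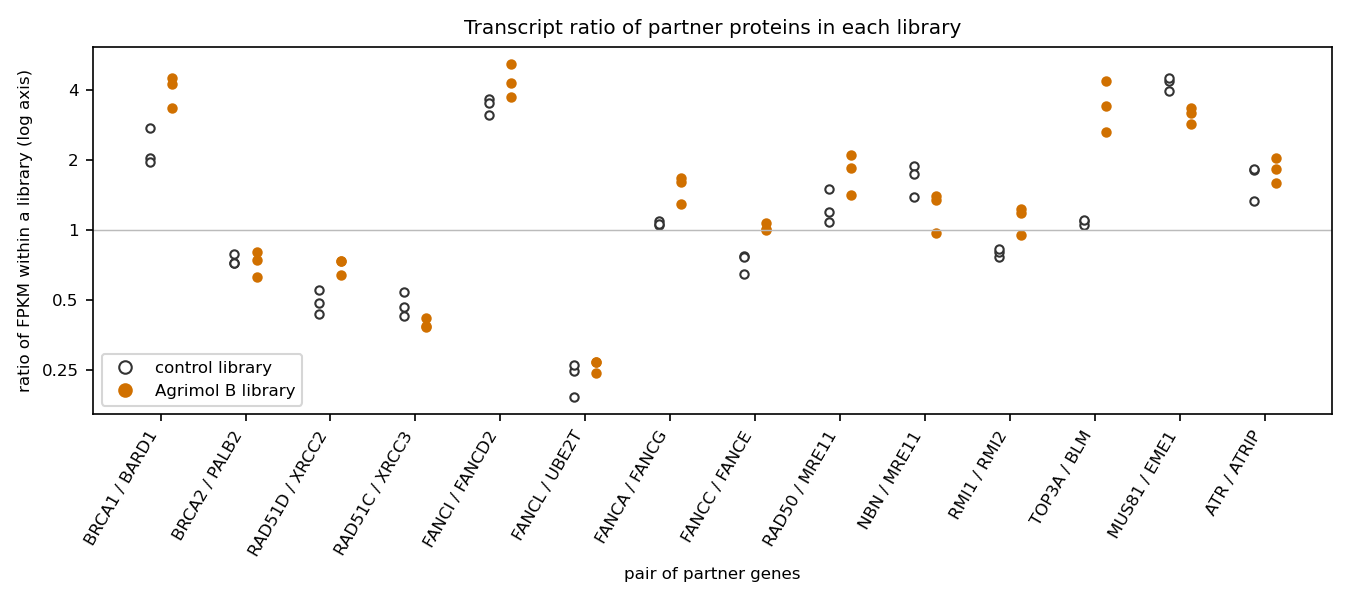
Ratio of the FPKM of partner genes within each library (log axis), for 14 pairs. Open circles are control and filled circles Agrimol B libraries; the groups are apart in 9 pairs, 7 higher and 2 lower with Agrimol B, and furthest apart for TOP3A to BLM (1.05 to 1.10 against 2.64 to 4.39).

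Agrimol B replicate 1 was the highest of the 3 treated libraries in 17 of the 39 genes (43.6%), against 35.1% of genes tested. Agrimol B replicate 3 was the lowest in 18 of them (46.2%), against 33.2% of genes tested. BLM, RAD51AP1, FANCD2, MRE11 and ATM were among those highest in replicate 1, and the relative depth of that library was 1.00 against 1.19 and 1.16 for the other treated libraries. The part of the depth in these values was not tested.

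The 39 genes spanned a wide range of levels. FANCI (73.7 FPKM over the 6 libraries), UBE2T (48.6), XRCC3 (34.9), MUS81 (34.6) and RBBP8 (27.1) were highest, and FANCM (2.94), RAD51D (3.42), FANCB (3.54), RAD54B (3.62) and ATRIP (5.49) were lowest. Their median mean level was 12.8 FPKM, against 11.1 FPKM for all genes tested. Across the 39 genes, which are not independent replicates, the level had a Spearman rho of 0.02 with the difference, and the length of the gene in the genome a rho of 0.06 with the difference and of 0.20 with its size.

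Many repair genes share a short stretch of DNA between start sites with a neighbour read in the other direction. Neighbours within 1000 bases, measured from the outermost annotated start of each gene, were found for 15 pairs after the values were seen. The start of EME1 lies 6 bases from that of MRPL27, a mitochondrial ribosomal protein gene, and the pair moved apart: EME1 rose and MRPL27 fell (difference -0.50, adjusted p = 0.0111). NBR1, an autophagy receptor gene 236 bases from the outermost annotated end of BRCA1 (43170245), rose (0.50, adjusted p = 0.000915), while BRCA1 was not called. The promoter window of BRCA1, at 43125315 to 43125614, lies far inside that end, so NBR1 does not share it. MOSPD2, 372 bases from FANCB, rose (0.49, adjusted p = 0.00276), and ZFYVE21, 226 bases from XRCC3, fell (-0.42, adjusted p = 0.000809), while neither repair gene passed the test. FKBP3, 621 bases from FANCM, fell (-0.24, adjusted p = 0.0102). In 6 pairs neither gene was called, and in 4 the neighbour was not tested.

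The wider pathway was described with 65 further genes of recombination, the Fanconi pathway and damage signalling. All 65 were in the table and 63 were tested, SLX1A and HELB lying below the filter. Of these 63, 17 rose (27%), 14 fell (22.2%) and 32 did not pass the test, with a median difference of 0.05, shares that were close to the background. The 19 tested genes of other recombination and resolution steps had 8 rises, 2 falls and a median of 0.21. The 15 other Fanconi genes had 3 rises and 4 falls, and the 29 genes of damage signalling and end choice had 6 rises and 8 falls.

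TOP3A, the topoisomerase partner of BLM, had the largest difference of these 63. It stood at 20.8, 18.9 and 20.7 FPKM in control and at 45.7, 50.8 and 40.5 FPKM with Agrimol B. Its mean rose 2.27-fold from 20.1 ± 1.09 to 45.7 ± 5.17 FPKM (difference 1.14, adjusted p = 0.00021), while that of BLM fell. SWI5, a cofactor of the recombinase, rose 1.99-fold from 11.4 ± 0.605 to 22.6 ± 0.436 FPKM (adjusted p = 6.82e-05). CHEK2, the checkpoint kinase that ATM activates, fell 1.89-fold from 7.69 ± 0.794 to 4.06 ± 0.786 FPKM (adjusted p = 0.00332). CENPX, a histone-fold partner of FANCM, fell 1.75-fold from 26.8 ± 4.79 to 15.4 ± 0.234 FPKM (adjusted p = 0.00278).

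Genes of replication and proliferation moved in the same libraries. The summed level of the 10 proliferation markers was 741.6 to 757.1 FPKM in control and 387.8 to 429.6 FPKM in Agrimol B libraries. The proliferation antigen MKI67 fell 1.94-fold, the cyclins CCNB1 and CCNA2 2.14-fold and 1.75-fold, and the thymidylate synthase TYMS 2.24-fold (adjusted p 5.04e-05, 2.09e-05, 3.52e-05 and 0.000881). Of 23 replication licensing and fork genes 19 fell and 1 rose, with a median of -0.42. The sliding clamp PCNA and the helicase subunit MCM5 both fell 1.59-fold, the helicase cofactor GINS1 1.68-fold and the polymerase subunit POLE2 1.63-fold (adjusted p 0.000904, 0.00029, 0.000225 and 0.000151). These 23 genes summed to 1040 to 1048 FPKM in control and 797.6 to 807.4 FPKM in treated libraries. The summed level of the 39 repair genes was 641.1 to 657.1 FPKM in control and 582.0 to 617.3 FPKM in treated libraries. That shift was smaller than that of either list. Such sums weigh high genes most, such as FANCI among the 39 and TYMS among the proliferation markers.

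The other repair routes were mixed as well. In non-homologous end joining, which rejoins ends without a template, 1 of 10 genes rose and 3 fell, with a median of -0.11. XRCC6, which encodes the Ku70 end-binding protein, fell 1.63-fold from 305.0 ± 2.11 to 188.0 ± 2.63 FPKM (difference -0.70, adjusted p = 3.18e-05), and its partner XRCC5 fell 1.14-fold (-0.19, adjusted p = 0.00686). NHEJ1, a ligation cofactor, fell 1.30-fold (adjusted p = 0.00609), and the polymerase gene POLL rose 1.31-fold (adjusted p = 0.0259). In 5 of 13 alternatives POLL did not pass.

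Excision and mismatch repair had 6 rises and 7 falls among 22 genes, with a median of 0.02. The damage sensor XPC went from 12.6 ± 0.232 to 24.6 ± 0.605 FPKM, a 1.95-fold rise (adjusted p = 4.12e-05). The uracil glycosylase UNG fell 2.16-fold (adjusted p = 0.0130), the endonuclease APEX1 1.98-fold (adjusted p = 0.00932) and the glycosylase NTHL1 1.91-fold (adjusted p = 0.000778). In UNG the control libraries were spread, at 22.8, 22.6 and 41.2 FPKM, and in APEX1 at 76.5, 75.6 and 48.6 FPKM, while all treated values of both genes lay below them.

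**Figure D4:**
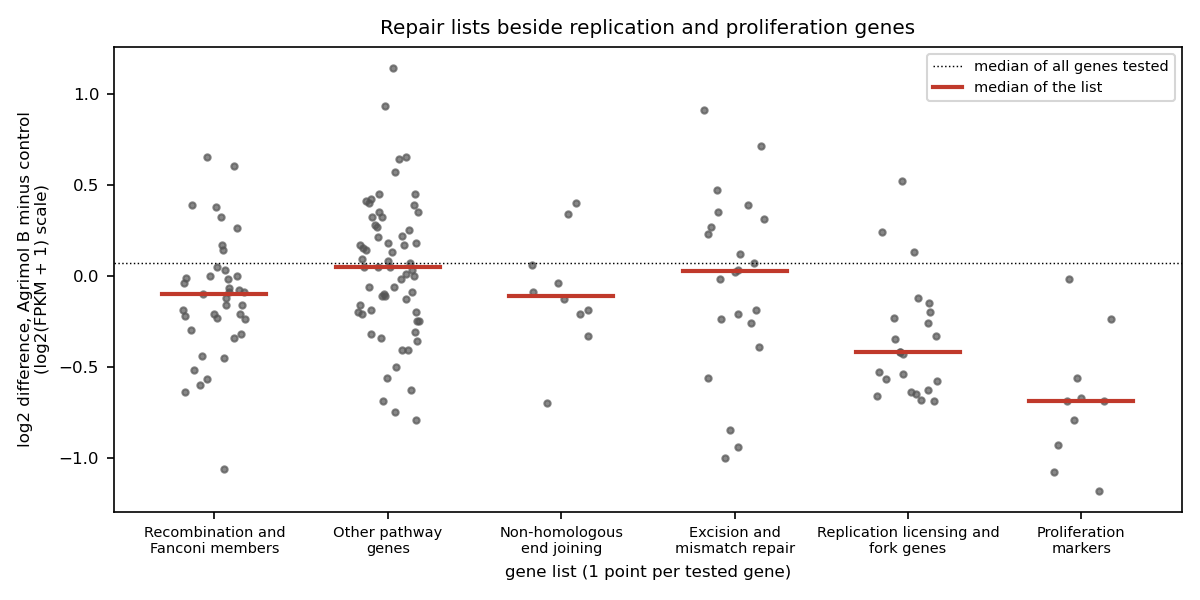
Difference of each tested gene in the 39 repair genes, the further pathway genes and 4 comparison lists, on the log2(FPKM + 1) scale. Each point is a gene, red lines are list medians and the dotted line is the median of all genes tested; the medians are -0.10 for the 39 repair genes, -0.42 for replication genes and -0.69 for proliferation markers.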

How the data were processed

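The authors deposited 1 table of FPKM values with a column per library. HISAT, Trimmomatic, cutadapt, FastQC and hg38 appear in the submitters' processing notes, without versions or roles. The program behind the FPKM, its annotation and its handling of strand are not given in these sources. Treated columns carry the names in the samples' descriptions. For the controls the 2 letters are swapped in the column names, and number and letters gave the match. Values were analysed as log2(FPKM + 1) with limma 3.58.1 in R 4.3.3 (group term, moderation with a variance trend, two-sided), for genes whose mean reached 1 FPKM. The rest used Python 3.11.15 (numpy 2.4.6, pandas 2.3.3, matplotlib 3.10.9, scipy 1.17.1). Relative depth came from genes under 0.05 FPKM in 15 pairs of libraries, fitted within 0.002 (log2).

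Members and lists were chosen with earlier results of these data known. Full values go to every called member and to the members of each role with the largest and smallest difference, and up to 4 called genes are named per other list; further members described in full were added after their values were seen. Coordinates and exon overlaps are from GENCODE release 29 (GRCh38), and promoter windows from RefSeq (GRCh38.p14). Alternatives were a pseudocount of 0.1, a mean of at least 5 FPKM, no filter, median-ratio scaling, quantile normalization, no variance trend, a replicate block and leaving out each library. A simulation from the same 12143 genes used normal noise with the moderated variances of the fit. It changed 100 genes by 2-fold and 100 by 1.5-fold in FPKM + 1, none among the lowest. In FPKM itself such changes are larger folds. Of these 95% and 81% were recovered, and 11 of 187 calls were false. Far fewer genes changed in it than were called in the data, so these shares may not carry over.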

Additional observations from a re-analysis of the deposited data

How the results depend on the processing

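Over 13 alternatives, 453 of 503 recomputed member differences kept their direction and their side of the threshold, and 11 of the 15 called members kept their call under every alternative that tested them; RAD51B, RAD51D, FANCA and BLM did not. A further 10 members passed under at least 1 alternative. Rises among the members numbered 3 with median-ratio scaling and 3 with quantile normalization, and 3 to 5 when each library was left out in turn. The median difference of the members was -0.16 with median-ratio scaling and -0.179 with quantile normalization, while that of all genes moved from 0.065 to 0.003 and 0.007. Only uncalled members with differences near 0 changed sign. FANCF stood at -4.4e-05 with a pseudocount of 0.1, -0.063 with median-ratio scaling, -0.076 with quantile normalization and -0.04 to 0.024 with a library left out. With median-ratio scaling XRCC3 was at -0.019 and FANCI at -0.039. With a library left out PALB2 ranged from -0.071 to 0.027, FANCM from -0.052 to 0.092 and MUS81 from -0.067 to 0.039. The causes were not tested. Where a group is left with 2 libraries, limma pools their spread with the other group. Same-numbered libraries did not deviate together (Pearson r across genes 0.037, -0.006 and -0.015), and unlike-numbered ones had values of -0.066 to 0.069. With 3 libraries per group this cannot show whether same-numbered libraries were prepared together. With a replicate block 4 members were higher and 10 lower, RAD51B (adjusted p = 0.0938) and RAD51D (0.05) were not called and ATM was (0.0364). The unknown read number limits what low genes such as FANCM, RAD51D and FANCB can show.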
